A study of Mus musculus with 12 samples.

Results

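Loss of CD18 in LPS-treated dendritic cells was examined in 6 of the 12 libraries of an RNA-seq series of mouse bone marrow-derived dendritic cells (BMDCs). The members were taken from the library labels, as the 3 Cre+ libraries (CD18 CD11c cKO) and the 3 Cre- libraries (CD18 fl/fl) that had received LPS, a bacterial cell wall component that is sensed by Toll-like receptor 4. Both groups were homozygous for the floxed CD18 allele, which the controls carry as well, and differed in Cre recombinase driven by the CD11c promoter, so that deletion depends on CD11c expression in each cell. Bone marrow cells were grown with GM-CSF to day 10, LPS was present at 100 ng/mL for 24 h, and MHCII+ cells were enriched by magnetic beads before RNA isolation. The ages of the mice, and whether a library stands for 1 mouse, were not given in the sources used here. The p-values therefore refer to these libraries and not to mice. In the main fit they rest on the spread left once differences between replicate numbers are taken out. The other 6 libraries are the same genotypes without LPS, and they were used only to ask whether a difference was seen in that state too.

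CD18 is the beta chain shared by the β2 integrins, and it pairs with the alpha chains CD11a, CD11b, CD11c and CD11d (Itgal, Itgam, Itgax, Itgad). These heterodimers bind ICAMs and complement fragments and signal in both directions across the membrane. In dendritic cells they take part in adhesion, podosome formation, phagocytosis and the tuning of Toll-like receptor signals.

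The exon removed by Cre, exon 3 of 16 in the annotated transcript Itgb2-201, is shown because it defines the difference between the groups. It lies on the plus strand at chr10:77378232-77378320 (GRCm39) and is coding sequence. Its length of 89 bases leaves a remainder of 2 when divided by 3, so its removal shifts the reading frame of what follows. The reads were counted over the whole gene, and reads outside exon 3 also count for a transcript that lacks it.
Itgb2 exon 3: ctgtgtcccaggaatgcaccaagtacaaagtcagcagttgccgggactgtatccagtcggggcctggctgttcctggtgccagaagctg

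The 6 libraries held between 29834029 and 34037178 reads in genes, and 3 reads, taken as the limit of detection, correspond to between 0.0704 and 0.119 CPM, a gene's reads scaled to a common library total after TMM scaling, which is the scale of all levels given. The replicate 3 libraries of both genotypes stood apart from replicates 1 and 2: deviations from the genotype mean correlated at 0.461, 0.409 and 0.735 within same-numbered pairs and between -0.627 and -0.48 for replicate 3 against the other 2 numbers. Differently numbered libraries of replicates 1 and 2 correlated at 0.369 and 0.346, nearly as high as same-numbered ones. The replicate number was used as a block, so that each CD18 CD11c cKO library was set against its own numbered control. The CD18 CD11c cKO library of replicate 3 had 0 reads of the Y-linked genes Ddx3y, Eif2s3y and Kdm5d and 2 reads of Uty, while the other 5 libraries had between 137 and 4987 reads of each. The same library had 71 reads of Tsix and the other 5 libraries had 0, while Xist was counted at 0 reads in all 6. Tsix overlaps Xist on the opposite strand, so that reads of the pair cannot be told apart where counting ignores strand. The third pair thus compares a library without Y-linked reads with one that has them, and counts are given with and without it. All 17 dendritic cell markers were detected in every library, though Flt3 had only 7 reads in the CD18 CD11c cKO library of replicate 3. Their summed level ranged from 13383 to 25973 CPM in CD18 fl/fl and from 17184 to 20664 CPM in CD18 CD11c cKO libraries. The most abundant was the MHCII gene H2-Ab1. Without it, the other 16 summed to 14079, 14009 and 9465 CPM in CD18 fl/fl and 13196, 11183 and 9768 CPM in CD18 CD11c cKO libraries. Transcripts per library were also of different length, since the median exon length per read was 2025 to 2179 bases in CD18 fl/fl and 1908 to 1945 bases in CD18 CD11c cKO libraries.

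Itgb2 itself was reduced but not lost. It was read at 151, 155 and 246 CPM in the CD18 fl/fl libraries of replicates 1, 2 and 3, and at 101, 79.6 and 109 CPM in the CD18 CD11c cKO libraries. The genotypes did not overlap (two-sided exact permutation p = 0.1 when the pairs are ignored, the lowest that 3 against 3 libraries can give). This is a log2 fold change of -0.91 with a standard error of 0.16 (edgeR adjusted p = 0.0201 with the block), and the adjusted p was 0.428 without the block. Leaving out the third pair gave -0.77 (adjusted p = 0.0267), while it was 0.0828 without the first and 0.0971 without the second pair. In bulk RNA, fewer cells with a transcript and less transcript per cell cannot be told apart.

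The alpha chain genes did not pass the test. Itgax, which encodes CD11c and gives its promoter to the Cre, was at 34.3, 27.9 and 263 CPM in CD18 fl/fl and 40.8, 32.4 and 261 CPM in CD18 CD11c cKO libraries, which are nearly the same values pair by pair. Its log2 fold change was 0.15 (standard error 0.14), against -0.30 (standard error 0.30) for Itgal, 0.01 (standard error 0.28) for Itgam and 0.72 (standard error 0.88) for Itgad. Only 29.6% of the Itgam reads mapped to a single position, so its value is uncertain.

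Of 12441 genes tested with the block, 869 (6.98%) were called higher and 393 (3.16%) lower in CD18 CD11c cKO libraries, together 10.1%, with the threshold set at an adjusted p of 0.05 and a median log2 fold change over all genes of -0.09. Genes classed as ribosomal or respiratory chain by the start of their symbol made up 137 of the higher and 3 of the lower genes. Such a class can take in genes with like names and miss members that are named otherwise. The remaining 732 higher and 390 lower genes are the subject of what follows. All 869 and all 393 changed in the same direction in the 3 pairs, so this agreement does not set any called gene apart. The genotypes did not overlap for 590 and 221 of them, against 18% of all genes tested, 9.18% above and 8.83% below the controls. At least a 2-fold change was found for 359 higher and 76 lower genes. Higher genes were short, with a median exon length of 1782.5 bases against 3523 bases for lower genes and 3374 for all genes. With an offset for exon length, 629 genes were higher (5.06%) and 260 lower (2.09%), together 7.15%, and 560 of the higher and 184 of the lower genes were called in both fits. With scaling by library size alone, the median of all genes moved to -0.34 and the split turned to 590 higher and 2052 lower genes.

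**Figure D1:**
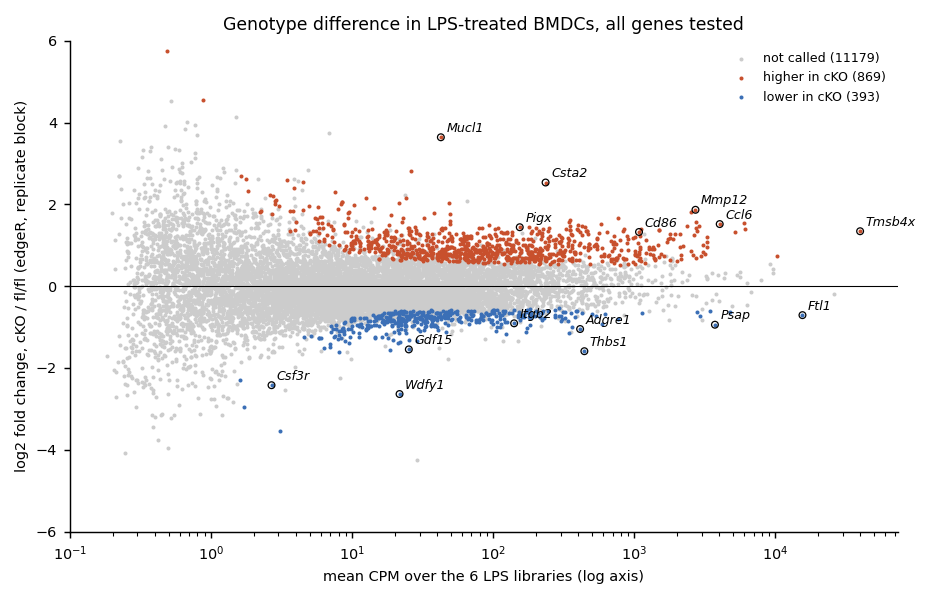
Log2 fold change between CD18 CD11c cKO and CD18 fl/fl BMDCs with LPS (y axis) against the mean CPM over the 6 libraries (x axis, log scale), 1 point per gene, with 869 genes called higher in red, 393 called lower in blue and named genes circled. Mucl1 and Wdfy1 stand out above and below. Genes beyond 6 in either direction, such as Gm10184, lie outside the axis.

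These counts rest on the block and on the pairs. Without the block, edgeR called 0 genes, and 770 higher and 442 lower genes had an unadjusted p under 0.05. DESeq2 without the block called 141 and 9. Leaving out the first pair left 3 higher and 0 lower genes, leaving out the second left 203 and 25, and leaving out the third, which holds the library without Y-linked reads, gave 883 and 517, of which 741 and 263 were the same genes. Of the 151 called genes of the named set other than Itgb2, all lost the edgeR call without the block, while 37 were called by DESeq2 without it. The edgeR call was lost by 149 without the first pair, 92 without the second and 16 without the third. Those that lost it without the third pair include Kmo, Itgb3, Tmem104, Apbb1ip, Itga5, Emilin1, Emilin2, Pdgfa, Il1rn, Tapbp, Birc5, Fads1, Jun and Csf3r.

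The 15 genes with the largest rise, taken from called genes with a mean of at least 5 CPM and the same direction in all pairs, leaving out ribosomal, respiratory chain and predicted genes, include secreted proteins, protease inhibitors, enzymes and a chemokine. The 15 with the largest fall were chosen likewise. Mucl1, a small mucin-like secreted protein on chromosome 15, led the genes that rose. It was at 9.84, 10.6 and 1.43 CPM in CD18 fl/fl and 112, 89.6 and 31.8 CPM in CD18 CD11c cKO libraries. No CD18 CD11c cKO library came near a control, and the log2 fold change of 3.64 had a standard error of 0.28 (edgeR adjusted p = 0.00641). Csta2, a stefin that inhibits cysteine proteases, was even between replicates, at 74.2, 57.8 and 73.0 CPM against 482, 296 and 425 CPM. Mmp12, the macrophage elastase that degrades elastin, was the most abundant of the 15, at 683, 791 and 2271 CPM against 3203, 2890 and 6427 CPM. Its log2 fold change was 1.87 (standard error 0.17, adjusted p = 0.00641), and all 3 CD18 CD11c cKO libraries exceeded the highest control.

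Several of the risen genes sat at very different levels in replicate 3, and for these the genotypes overlapped while every pair moved the same way. Gatm, which catalyses the first step of creatine synthesis, was at 4.71, 4.29 and 15.2 CPM in CD18 fl/fl and 23.8, 13.3 and 82.3 CPM in CD18 CD11c cKO libraries (log2 fold change 2.15, standard error 0.21, edgeR adjusted p = 0.00641). Kmo, an enzyme of the kynurenine pathway of tryptophan breakdown, was at 1.25, 0.405 and 16.8 CPM against 5.92, 1.20 and 60.1 CPM. Asb2, a substrate adaptor of a ubiquitin ligase, reached 11.8 and 49.2 CPM in replicate 3 and stayed under 0.48 CPM in the other 4 libraries, so its call rests on that pair. Crisp3, a cysteine-rich secretory protein, went the other way, with 9.57 and 5.64 CPM in CD18 fl/fl against 97.6 and 41.9 CPM in CD18 CD11c cKO libraries of replicates 1 and 2, but 0.376 and 1.01 CPM in replicate 3. Calcb, which encodes a calcitonin gene-related peptide, was at 9.20, 6.42 and 0.564 CPM against 34.5, 18.3 and 5.94 CPM.

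The remaining named higher genes had log2 fold changes from 1.89 to 2.29. They were the neutrophil-attracting chemokine gene Cxcl5 (2.29), the stefin-like gene Cstdc4 (2.02), Plac8 (2.04), Eif1ad7 (2.06), Ctla2b (2.01), Gbp2b (1.93) and Rgs18, a regulator of G protein signaling (1.89). Ctla2b and Eif1ad7 belong to families of near-identical copies, and only 30.2% and 64.7% of their reads mapped to a single position, so that reads may be split between copies. Gbp2b was at 4.16, 1.55 and 1.81 CPM in CD18 fl/fl and 7.03, 11 and 8.55 CPM in CD18 CD11c cKO libraries. Plac8 was at 37.1, 20.1 and 7.45 CPM against 59.7, 105 and 60.6 CPM, again without overlap. Rgs18 rose from 3.17, 4.05 and 2.47 CPM to 9.69, 8.37 and 19.9 CPM. All 15 were also called with the length offset.

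**Figure D2:**
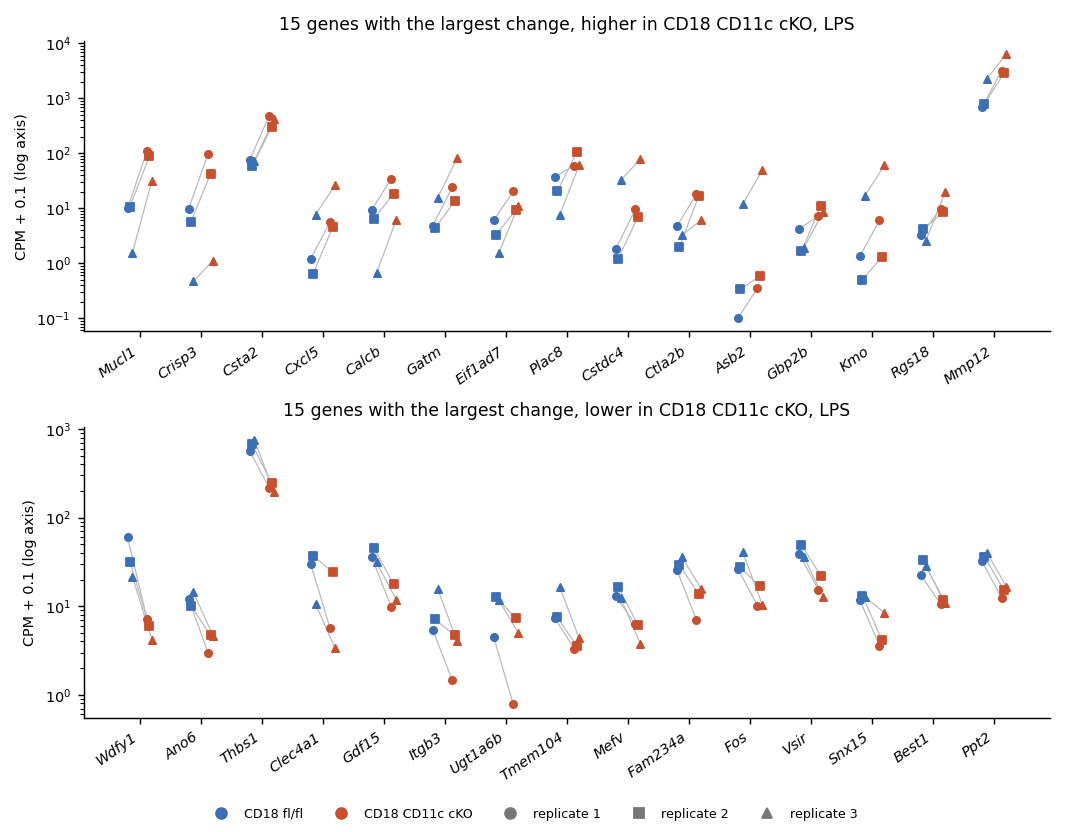
CPM plus 0.1 (log axis) of the 15 genes with the largest rise (top) and the 15 with the largest fall (bottom) in each of the 6 LPS libraries, with CD18 fl/fl in blue, CD18 CD11c cKO in red, the replicate number as the marker and a grey line joining same-numbered libraries. Every line rises in the top and falls in the bottom panel, since genes were chosen for the same direction in all pairs. Triangles (replicate 3) often lie far from the others, as for Crisp3, Kmo and Asb2.

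Among the genes that fell, Wdfy1 stood out. It encodes an endosomal FYVE domain protein that links Toll-like receptors 3 and 4 to the adaptor TRIF. Wdfy1 was at 59.9, 31.5 and 21.4 CPM in CD18 fl/fl and 7.11, 5.82 and 4.10 CPM in CD18 CD11c cKO libraries, and no library of one genotype entered the range of the other. Thbs1, the matrix protein thrombospondin-1, fell from 568, 674 and 750 CPM to 217, 247 and 196 CPM. Gdf15, a stress-induced cytokine of the TGF-β family, fell from 35.7, 45.1 and 31.3 CPM to 9.76, 17.5 and 11.8 CPM (log2 fold change -1.55, standard error 0.17, edgeR adjusted p = 0.00641). These were clear separations in each pair.

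Several of the fallen genes encode membrane proteins. Ano6, a calcium-activated phospholipid scramblase, was at 12, 10 and 14.3 CPM in CD18 fl/fl and 2.87, 4.58 and 4.54 CPM in CD18 CD11c cKO libraries (log2 fold change -1.61, standard error 0.26, edgeR adjusted p = 0.0139). Vsir, which encodes the inhibitory receptor VISTA, was at 39.1, 49.3 and 36.1 CPM against 15.3, 21.8 and 12.6 CPM (log2 fold change -1.35, standard error 0.16, adjusted p = 0.00677). Clec4a1, a C-type lectin, fell from 29.9, 37.2 and 10.5 CPM to 5.53, 24.0 and 3.27 CPM, with overlap between the genotypes. Itgb3, the beta chain of the vitronectin receptor, was low, at 5.33, 6.99 and 15.6 CPM against 1.36, 4.58 and 3.92 CPM, and its adjusted p moved from 0.0391 to 0.05 with the length offset and to 0.0881 without the third pair. Best1, a chloride channel, fell from 22.3, 32.8 and 28.1 CPM to 10.6, 11.6 and 10.8 CPM, and Tmem104 from 7.22, 7.37 and 16.5 CPM to 3.23, 3.47 and 4.25 CPM.

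Of the others, Mefv encodes pyrin, a sensor that assembles an inflammasome, and was at 12.8, 16.3 and 12.2 CPM in CD18 fl/fl and 6.17, 6.10 and 3.68 CPM in CD18 CD11c cKO libraries. Fos, a subunit of the transcription factor AP-1, was at 26.5, 27.3 and 40.7 CPM against 10.0, 16.7 and 10.3 CPM. Neither gene overlapped between the genotypes. Ppt2, a lysosomal thioesterase, was even between replicates, at 32.1, 36.2 and 40.1 CPM against 12.3, 15 and 16.5 CPM (log2 fold change -1.31, standard error 0.15, edgeR adjusted p = 0.00663). Fam234a and the sorting nexin gene Snx15 had log2 fold changes of -1.38 and -1.33. Ugt1a6b (-1.48) shares exons with other UDP-glucuronosyltransferases, only 15.7% of its reads were unique, and with the length offset its adjusted p was 0.0538.

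Beyond single genes, 40 lists of genes with a common function were described by how many of their tested members were called, beside the 6.98% and 3.16% of all genes. More members were called higher than lower in 22 lists and lower than higher in 14. Since higher genes are short, each list is given with its length offset value where that changes the count by over 1.5 times.

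**Figure D3:**
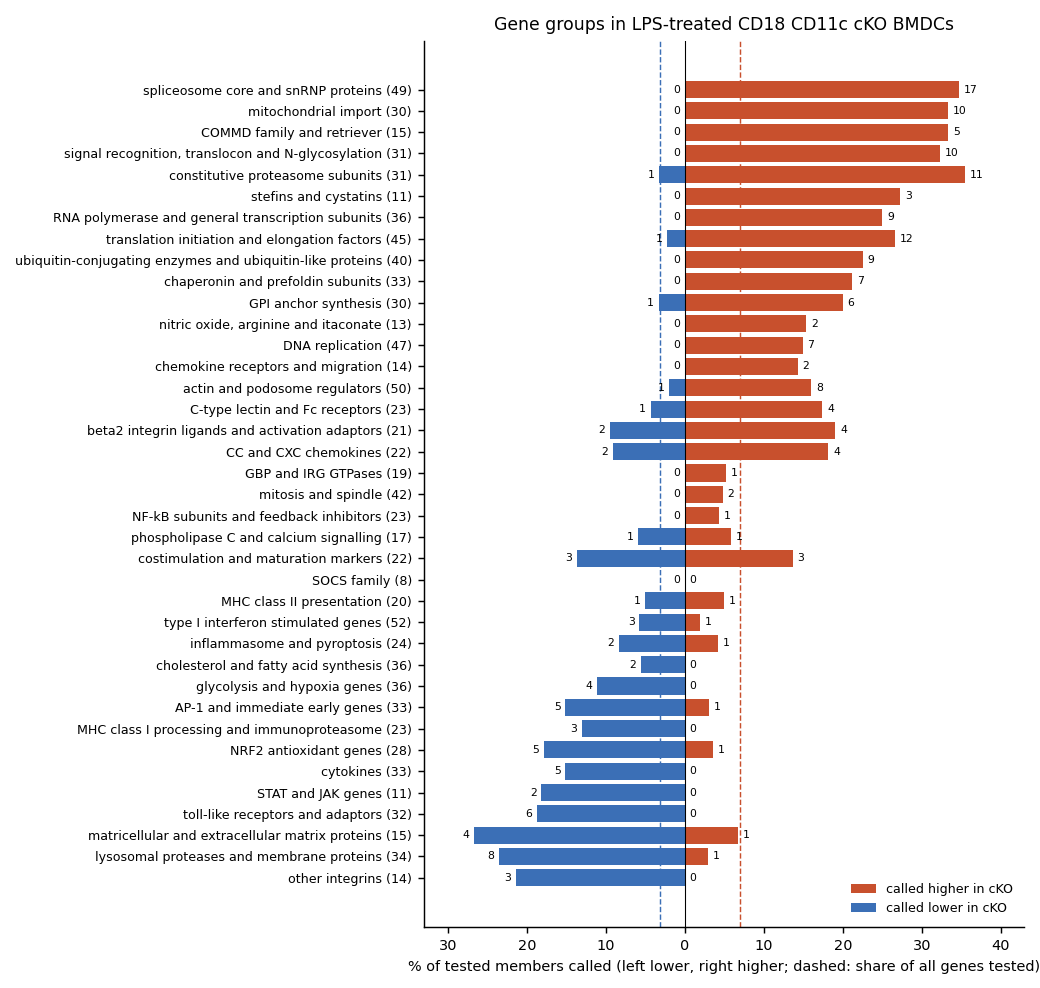
Share of tested members called higher (red, to the right) and lower (blue, to the left) in CD18 CD11c cKO BMDCs with LPS, for each list with at least 8 tested members (number tested in brackets, number called at the bar ends). Dashed lines mark the share over all genes tested. The spliceosome, mitochondrial import, COMMD and proteasome lists extend farthest to the right, and extracellular matrix, lysosome and other integrins to the left.

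Genes of adhesion fell outside the β2 family too. Of 14 other integrin genes tested, 3 fell and 0 rose. Itgb1, the common β1 chain, was at 589, 436 and 361 CPM in CD18 fl/fl and 396, 281 and 232 CPM in CD18 CD11c cKO libraries (log2 fold change -0.62, standard error 0.13, edgeR adjusted p = 0.0285). Itga5, its fibronectin-binding partner, fell from 47.9, 48.0 and 163 CPM to 31.9, 29.6 and 80.3 CPM. Both overlapped between the genotypes because replicate 3 differed, and all 3 pairs fell, as for every gene called lower. With the length offset, the adjusted p was 0.0595 for Itga5 and 0.0749 for Itgb1. The matrix genes Ecm1 (-1.27), Emilin1 (-1.16) and Emilin2 (-0.72) fell along with Thbs1, which makes 4 of 15, while Spp1, which encodes osteopontin, rose. Spp1, Emilin1 and Emilin2 were not called with the length offset.

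Of 21 genes for β2 integrin ligands and activating adaptors, 4 rose and 2 fell. The small GTPase genes Rap1a and Rap1b, which switch integrins to the active state, rose by log2 fold changes of 0.79 and 0.87, and the adaptor Skap2 by 0.89. Apbb1ip, which encodes the Rap1 effector RIAM, fell from 38.9, 45.6 and 73.0 CPM to 23.7, 32.2 and 37.0 CPM (log2 fold change -0.73, standard error 0.16, edgeR adjusted p = 0.0334). With the length offset no gene of this list was called lower. Among 50 actin regulators, 8 rose and 1 fell. Tmsb4x, the actin monomer binder thymosin β4, was among the most abundant transcripts, at 25991, 28854 and 14008 CPM in CD18 fl/fl and 56979, 70015 and 43042 CPM in CD18 CD11c cKO libraries. Myosin light chain Myl6 (1.14) and the Arp2/3 subunits Arpc5 (1.08) and Arpc3 (0.91), which nucleate branched actin, rose as well. With the length offset, 5 actin regulators rose and 1 fell.

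Of 32 Toll-like receptor and adaptor genes tested, 6 fell and 0 rose, and 1 had a log2 fold change above 0 (median -0.51, and -0.39 with the length offset, where 4 fell). Tlr6, which pairs with TLR2 for lipopeptides, was at 21.7, 28.8 and 17.8 CPM in CD18 fl/fl and 10.9, 10.5 and 7.34 CPM in CD18 CD11c cKO libraries (log2 fold change -1.24, standard error 0.18, edgeR adjusted p = 0.0104). Irak2, a kinase of the MyD88 complex, was at 72.1, 71.4 and 86.3 CPM against 43, 36.3 and 45.2 CPM (log2 fold change -0.89). Neither overlapped between the genotypes. Unc93b1, the chaperone of the endosomal receptors, fell with a log2 fold change of -0.74, and Tlr1 and Irak3 completed the 6 with Wdfy1. Of 23 NF-κB subunits and feedback inhibitors, 1 was called, Tnip3, which was higher (692, 767 and 397 CPM against 1479, 1443 and 1134 CPM), while the median of the list was -0.36. None of the 8 SOCS genes was called by edgeR with the block (median -0.31).

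Immediate early genes showed 5 falls and 1 rise in 33. Besides Fos, these were Jun (-0.78), Mafg, the mRNA decay factor Zfp36 (-0.76) and the MAP kinase phosphatase Dusp1. Zfp36 was at 192, 221 and 189 CPM in CD18 fl/fl and 107, 139 and 112 CPM in CD18 CD11c cKO libraries, without overlap. Batf3, a transcription factor of type 1 conventional dendritic cells, rose from 108, 96.8 and 24.1 CPM to 173, 161 and 64.8 CPM, but with the length offset its adjusted p was 0.267. Stat6, which transmits IL-4 signals, fell (-0.59) and was not called with the length offset.

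Of 33 cytokine genes, 5 fell and 0 rose. Lif, a cytokine of the IL-6 family, was at 31.2, 34.2 and 92.9 CPM in CD18 fl/fl and 14.8, 16.9 and 48.8 CPM in CD18 CD11c cKO libraries, close to 1 log2 unit lower in each pair (log2 fold change -1.0, standard error 0.15, edgeR adjusted p = 0.0109). Ebi3, the beta chain shared by IL-27 and IL-35, fell from 71.8, 66.1 and 101 CPM to 49.8, 31.5 and 63.3 CPM. Il1rn, the IL-1 receptor antagonist, fell from 300, 319 and 418 CPM to 214, 203 and 298 CPM. Pdgfa (-0.96) and Vegfa completed the list, and with the length offset 2 of the 5 were called. The median of all 33 was 0.35, so the falls were not shared by most of the list.

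Chemokines were called in both directions, with 4 of 22 higher and 2 lower. Ccl17, a ligand of CCR4 made by dendritic cells, was at 124, 150 and 2551 CPM in CD18 fl/fl and 525, 346 and 11380 CPM in CD18 CD11c cKO libraries (log2 fold change 1.82, standard error 0.21, edgeR adjusted p = 0.00663). Ccl6 was at 277, 334 and 6468 CPM against 1014, 917 and 15149 CPM, and Ccl9, like Ccl6 a ligand of CCR1, at 309, 492 and 2517 CPM against 946, 947 and 9054 CPM. The replicate 3 libraries were far above the others in all of these, and each pair rose, as for every gene called higher. Ccr1, the receptor, was level in the controls at 137, 134 and 137 CPM and reached 433, 326 and 301 CPM in CD18 CD11c cKO libraries (log2 fold change 1.36, standard error 0.16, adjusted p = 0.00663). Cxcr4 rose with a log2 fold change of 0.93, and Ccl5 and Cx3cl1 fell. With the length offset, 4 chemokines rose and 1 fell, and the median of the list went from 0.66 to 0.14.

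Costimulatory genes were split by sign, with 3 of 22 higher and 3 lower. Cd86, the ligand of CD28 and CTLA-4, was at 668, 626 and 547 CPM in CD18 fl/fl and 1784, 1434 and 1410 CPM in CD18 CD11c cKO libraries, far apart and even between pairs (log2 fold change 1.33, standard error 0.13, edgeR adjusted p = 0.00641). Cd83 (0.64) and Tnfsf4, which encodes OX40 ligand (0.93), also rose. Cd274, which encodes the inhibitory ligand PD-L1, fell from 613, 712 and 976 CPM to 342, 324 and 550 CPM (log2 fold change -0.93, standard error 0.14, adjusted p = 0.0109). Pvr, a ligand of DNAM-1 and TIGIT, fell from 38.9, 46.5 and 48.6 CPM to 22, 22.3 and 23.3 CPM, and Nectin2, another ligand of these receptors, fell too.

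Antigen presentation showed few calls. Of 23 genes of MHC class I processing, 3 fell and 0 rose, namely the peptide transporter subunit Tap2 (131, 117 and 107 CPM against 70.9, 64.7 and 67.8 CPM), the peptide loading factor Tapbp (-0.66) and H2-Q6 (-0.74), which has near-identical relatives. With the length offset 5 of the 23 fell, Tapbp not among them. Of 20 genes of class II presentation, Cd9 rose and Rfx5, a factor that drives class II promoters, fell, and with the length offset 3 fell and Rfx5 had an adjusted p of 0.107. Without the third pair, 11 of these 20 were called lower, against 1 with it.

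Lysosomal genes were lower in 8 of 34 cases and higher in 1. Psap, which encodes prosaposin, the source of 4 activators of sphingolipid hydrolases, was at 4505, 5604 and 4517 CPM in CD18 fl/fl and 1938, 3156 and 2625 CPM in CD18 CD11c cKO libraries (log2 fold change -0.94, standard error 0.14, edgeR adjusted p = 0.0123). Cd68, a lysosomal membrane glycoprotein of phagocytes, fell from 203, 265 and 233 CPM to 73.9, 138 and 117 CPM. The aspartic protease gene Ctsd fell from 3105, 3161 and 3830 CPM to 2090, 1916 and 2560 CPM. Psap, Cd68 and Ctsd did not overlap between the genotypes, and Npc1, the cholesterol exporter, fell in all pairs (-0.84). The count of 8 was the same with the length offset. Cd68 and Adgre1, which encodes F4/80 (581, 573 and 512 CPM against 235, 275 and 298 CPM), were also the 2 of 15 macrophage and monocyte markers that fell. The summed level of these 15 was 6863 to 13533 CPM in CD18 fl/fl and 10225 to 14545 CPM in CD18 CD11c cKO libraries, most of it Lyz2. Without Lyz2, the other 14 summed to 1953, 2174 and 2154 CPM in CD18 fl/fl and 1291, 1474 and 1319 CPM in CD18 CD11c cKO libraries, lower in each pair and without overlap. Their part in the lysosomal result was not tested.

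NRF2 antioxidant genes gave 5 falls and 1 rise in 28. Ftl1, the ferritin light chain, was at 16171, 23356 and 18516 CPM in CD18 fl/fl and 11337, 12804 and 11045 CPM in CD18 CD11c cKO libraries, although only 56.4% of its reads were unique. Prdx6 fell from 446, 755 and 271 CPM to 251, 261 and 170 CPM, and Gsr, glutathione reductase, with a log2 fold change of -0.91. Slc7a11 and Hmox1 were the others, and Prdx2 rose (0.79). Of 36 glycolysis and hypoxia genes, 4 fell (Slc2a1 -0.88, Hif1a -0.67, P4ha1 -0.64, Gpi1 -0.59) and 0 rose, and none of these was called with the length offset. Fads1, a fatty acid desaturase, fell (-0.80) and was not called with the offset. Without the third pair, the counts of lower genes were 13 for the lysosomal list, 10 for glycolysis and hypoxia, 6 for the 52 interferon-stimulated genes and 5 for the macrophage markers, and of higher genes 9 for chemokines and 4 for cytokines.

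Interferon-stimulated genes changed little in number, with 3 of 52 lower (5.77%) and 1 higher (1.92%). Ly6e was at 248, 245 and 215 CPM in CD18 fl/fl and 98.5, 169 and 111 CPM in CD18 CD11c cKO libraries, and Parp10 at 39.4, 45.6 and 43 CPM against 21.6, 25.0 and 25.7 CPM. Of the 19 GBP and IRG GTPases, only Gbp2b was called. Among 24 inflammasome genes, Mefv and Naip2 (-0.99) fell and Pycard, the adaptor ASC, rose (0.63). Pts (1.35) and Gch1 (0.80), enzymes that make tetrahydrobiopterin, the cofactor of nitric oxide synthase, were the 2 of 13 genes of nitric oxide, arginine and itaconate metabolism that were called. Gch1 was at 60.3, 61.6 and 78.4 CPM against 111, 113 and 122 CPM. Of 23 C-type lectin and Fc receptor genes, 4 rose and Clec4a1 fell. Clec7a, which encodes the β-glucan receptor Dectin-1, was at 791, 636 and 171 CPM in CD18 fl/fl and 1931, 1435 and 389 CPM in CD18 CD11c cKO libraries (log2 fold change 1.21, standard error 0.13, edgeR adjusted p = 0.00641), and it rose in each pair. With the length offset, 2 genes of this list rose and 2 fell.

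The largest shares of higher genes were found in machines that handle RNA and protein. Of 49 spliceosome genes, 17 (34.7%) rose and 0 fell. Snrpg, a core protein of spliceosomal snRNPs, was at 99.3, 108 and 117 CPM in CD18 fl/fl and 241, 325 and 317 CPM in CD18 CD11c cKO libraries, and Lsm7, a ring protein of the U6 snRNP, at 11.4, 17.3 and 16.4 CPM against 30.6, 49.6 and 42.4 CPM. The median exon length of this list was 1795 bases, and 7 rose and 1 fell with the length offset. Of 31 subunits of the constitutive proteasome, 11 (35.5%) rose and 1 fell, with Psma6 at 469, 549 and 376 CPM against 920, 1053 and 833 CPM. With the offset, 7 rose. Of 36 RNA polymerase and general transcription genes, 9 rose and 0 fell, among them the polymerase subunits Polr2k (1.21) and Polr1d (1.10), and 8 rose with the offset, when the adjusted p of Polr2k was 0.0586.

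Protein import and secretion followed the same pattern. Of 30 mitochondrial import genes, 10 rose and 0 fell, and 9 rose with the length offset (median 0.57, and 0.44 with the offset). Timm8b, a chaperone of the intermembrane space, was at 139, 177 and 93.1 CPM in CD18 fl/fl and 387, 384 and 298 CPM in CD18 CD11c cKO libraries. Of 31 genes of the signal recognition particle, translocon and N-glycosylation, 10 rose and 0 fell, but 4 rose with the offset. Sec61g, the small translocon subunit, was at 160, 211 and 148 CPM against 349, 400 and 489 CPM (log2 fold change 1.26, standard error 0.19, edgeR adjusted p = 0.0109). Of 45 translation factors, 12 rose and 1 fell, and Eif2s1, the alpha subunit of eIF2, was at 141, 161 and 144 CPM against 279, 387 and 346 CPM. Of 33 chaperonin and prefoldin genes, 7 rose and 0 fell, with Pfdn5 at 1.20 and the mitochondrial co-chaperonin gene Hspe1 at 1.28.

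Ubiquitin-conjugating enzymes and ubiquitin-like proteins had 9 of 40 members higher and 0 lower. Ube2v2, a catalytically inactive partner of UBE2N in K63-linked chain formation, was at 24.4, 23.4 and 24.9 CPM in CD18 fl/fl and 58.8, 82.8 and 82.2 CPM in CD18 CD11c cKO libraries, and Ube2n rose as well. Of 15 COMMD and retriever genes, 5 rose, and Vps29, shared by retromer and retriever, was at 134, 172 and 84.5 CPM against 312, 386 and 247 CPM. Of 30 genes for GPI anchor synthesis, 6 rose and 1 fell. Pigx was even between replicates, at 81.2, 81.5 and 86.0 CPM against 218, 225 and 233 CPM, and Pigp, Pyurf and Pigf had log2 fold changes of 1.36, 1.36 and 1.10, though Pigf was at an adjusted p of 0.0503 with the offset. Scaling by library size split several of these lists, with 11 higher and 9 lower genes for the spliceosome, 11 and 10 for translation factors, 5 and 8 for the translocon list, 4 and 7 for the ubiquitin list, 5 and 6 for chaperonins, 5 and 11 for actin regulators and 6 and 6 for GPI anchor synthesis.

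DNA replication genes were higher in 7 of 47 cases and lower in 0. Prim1, the primase subunit, was at 3.81, 3.99 and 4.74 CPM in CD18 fl/fl and 11.9, 17.8 and 14.6 CPM in CD18 CD11c cKO libraries (log2 fold change 1.80, standard error 0.22, edgeR adjusted p = 0.00709). Pcna, the sliding clamp, was at 213, 300 and 150 CPM against 387, 599 and 379 CPM, and Rrm2, a subunit of ribonucleotide reductase, at 0.757, 0.642 and 1.53 CPM against 3.84, 2.83 and 6.89 CPM. None of these overlapped between the genotypes. Of 42 mitosis genes, Mad2l1 (1.00) and Birc5 (2.01) rose and 0 fell, a share below that of all genes.

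Marker genes of other lineages were also summed. The 15 neutrophil markers summed to between 76.4 and 132 CPM in CD18 fl/fl and between 65.6 and 104 CPM in CD18 CD11c cKO libraries, and 8 of them were tested. Of these Csf3r, the G-CSF receptor, fell from 1.98, 2.33 and 9.18 CPM to 0.179, 0.797 and 1.60 CPM. The 13 mast cell, basophil and eosinophil markers summed to between 16.8 and 115 CPM in CD18 fl/fl and 25.9 and 149 CPM in CD18 CD11c cKO libraries, the highest values being in replicate 3, and 0 of 6 tested were called by edgeR with the block. The 15 lymphocyte markers summed to between 6.11 and 54.9 CPM and between 3.47 and 67.6 CPM. Of these Ms4a1, which encodes CD20, was higher, at 2.76, 7.33 and 0.0705 CPM in CD18 fl/fl and 8.58, 15.8 and 0.119 CPM in CD18 CD11c cKO libraries. The 11 erythroid and osteoclast markers summed to between 208 and 478 CPM in CD18 fl/fl and between 193 and 362 CPM in CD18 CD11c cKO libraries. Of these Dcstamp rose, and Acp5, the tartrate-resistant acid phosphatase, fell from 111, 134 and 418 CPM to 51.2, 81 and 301 CPM.

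Kpna2 and Gm10184 differed in which of 2 near-identical sequences the reads were given to, and they were chosen after their values were seen. Kpna2 (chromosome 11) encodes an importin alpha that carries proteins into the nucleus, and Gm10184 (chromosome 17) is an intronless copy of it. Over the 1587 coding bases of Kpna2, the 2 sequences are identical except at 2 positions (99.874% identity), A696G and C741T, counted from the first base of the start codon with the Kpna2 base first. Both positions lie within the 60 bases shown (GRCm39, minus strand of each gene, Gm10184 at chr17:90217004-90217063), where capitals mark them.
Kpna2: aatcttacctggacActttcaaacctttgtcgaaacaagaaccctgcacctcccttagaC
Gm10184: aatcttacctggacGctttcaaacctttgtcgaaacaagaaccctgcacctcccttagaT

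Kpna2 received 1831, 1682 and 1391 reads in CD18 fl/fl libraries, and Gm10184 received 0 in each. In CD18 CD11c cKO libraries, Kpna2 received 13, 693 and 22 reads and Gm10184 received 1118, 169 and 871. The second CD18 CD11c cKO library is thus intermediate, and replicates 1 and 3 hold nearly all their reads on Gm10184. Reads with a single mapping position showed the same split, with 321, 246 and 224 on Kpna2 and 0 on Gm10184 in CD18 fl/fl libraries, against 6, 95 and 12 on Kpna2 and 136, 19 and 134 on Gm10184 in CD18 CD11c cKO libraries. Summed over both genes, the level was 53.3, 56.8 and 32.7 CPM against 40.6, 34.3 and 26.5 CPM. Gm10184 was called (edgeR adjusted p = 0.00628) and Kpna2 was not (adjusted p = 0.0536). The bases in the reads at the 2 positions were not analysed here.

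**Figure D4:**
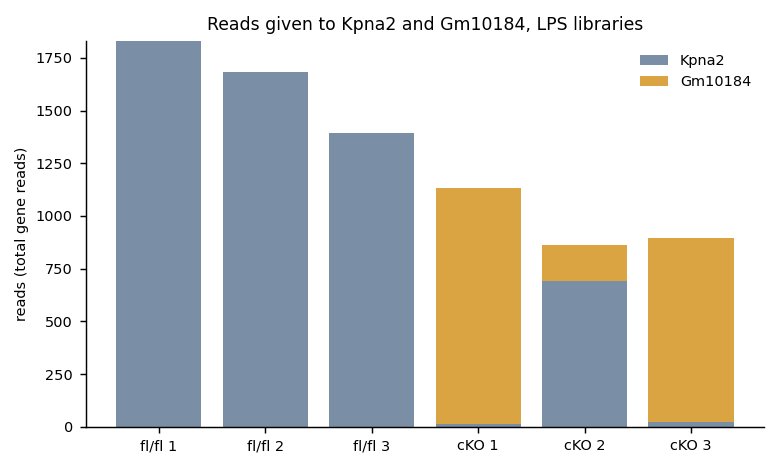
Reads assigned to Kpna2 (grey) and Gm10184 (yellow) in each LPS library, stacked, with the y axis in reads and starting at 0. The CD18 fl/fl bars are all Kpna2, the bars of CD18 CD11c cKO replicates 1 and 3 nearly all Gm10184, and the second holds 693 Kpna2 and 169 Gm10184 reads.

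The genotype difference seen with LPS was compared with that in the unstimulated libraries, which share no library with it. Per the study's methods, aliquots of the BMDCs received LPS, so same-numbered libraries of both states may come from the same cultures. Agreement between the states is then not independent of differences between those cultures. The unstimulated CD18 CD11c cKO library of replicate 3 also had 0 reads of Ddx3y, Eif2s3y, Kdm5d and Uty, with 89 reads of Tsix and 0 of Xist. The third pair thus has the same mismatch in both states. Of the higher genes, 865 were tested without LPS, 862 had the same sign and 771 were called. Of the lower genes, 391 were tested, 387 had the same sign and 193 were called, against 12.1% and 8.16% of all genes called higher and lower without LPS, together 20.2%. Among the 15 named higher genes, 13 were tested, all 13 had the same sign, and 7 were called. Cstdc4 (0.20), Ctla2b (0.16), Asb2 (0.39) and Kmo (0.40) had small log2 fold changes without LPS, with edgeR adjusted p between 0.254 and 0.92. All 15 named lower genes had the same sign, and 11 were called, the others being Clec4a1, Ugt1a6b, Snx15 and Best1. Among genes of the immune lists, Cd274 had a log2 fold change of -0.28 without LPS (adjusted p = 0.333) against -0.93 with it, and Tnfsf4 of 0.24 (adjusted p = 0.437) against 0.93. In the test of the difference itself, the interaction of genotype and LPS over 12 libraries, 0 of 13752 genes were called by edgeR with the block, and 173 in the positive and 99 in the negative direction had an unadjusted p under 0.05, where 688 would be reached by chance. The same test without the block called 0 genes, with 48 and 49 at that unadjusted p. Without the third pair, 1 gene (Igkv5-43) was called, and 710 and 506 had an unadjusted p under 0.05, against 689 by chance. The block in this test was the replicate number, shared by both genotypes, with no term for the culture. Differences between cultures of the same number thus stayed in its error. Its 0 calls therefore cannot show that the genotype difference was the same in both states. None of the genes named above was shown to differ between the states.

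**Figure D5:**
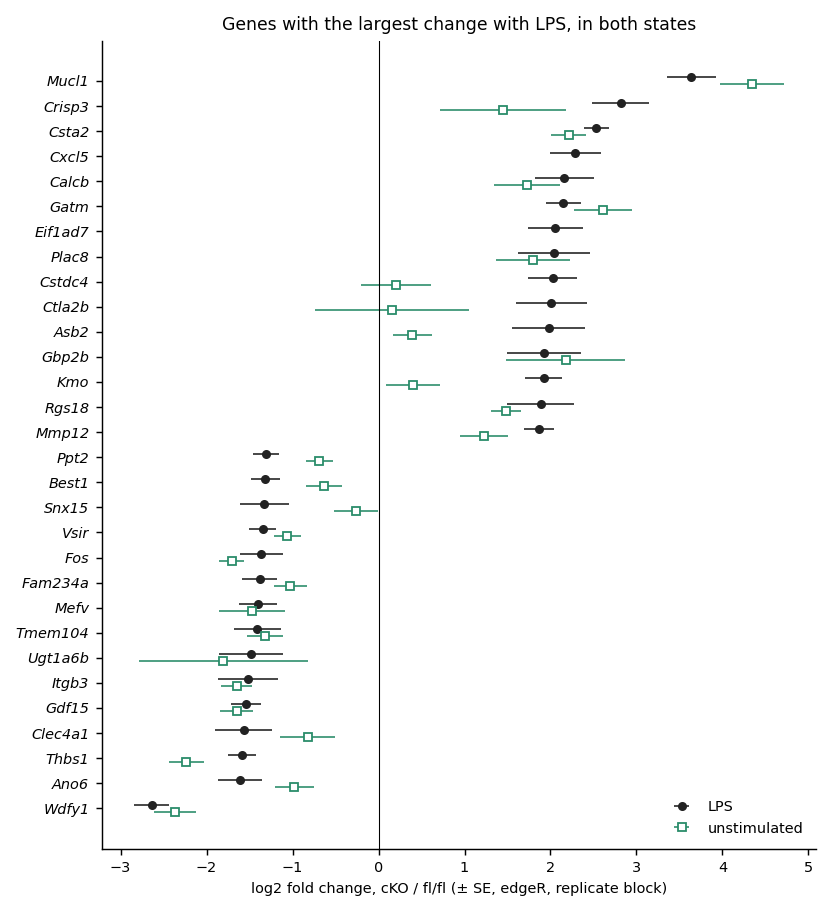
Log2 fold change between CD18 CD11c cKO and CD18 fl/fl BMDCs (x axis, with standard error, 3 libraries per group) of the genes with the largest rise or fall with LPS, with filled circles for LPS and open squares for unstimulated cells. Cxcl5 and Eif1ad7 were not tested without LPS. Squares lie on the same side of 0 as the circles for every gene, and are near 0 for Ctla2b, Cstdc4 and Snx15.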

How the data were processed

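RNA-seq reads were trimmed, aligned and counted per gene by the authors in CLC Genomics Workbench with default settings, and the deposited total gene reads are raw counts that were used here as given. Per the study's methods the genome was GRCm39, which the coordinates in the files match. The deposited TPM columns were not used.

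Genes were kept with the edgeR filter at a minimum count of 10. Counts were scaled by TMM and fitted with edgeR 4.0.16 (quasi-likelihood test, R 4.3.3) with genotype and replicate number as terms and Benjamini-Hochberg adjustment at 0.05. The labels do not say what the replicate number stands for, and it was used as a block by the rule that defined the comparison. Same-numbered libraries correlated at 0.461, 0.409 and 0.735, against 0.369 and 0.346 between numbers 1 and 2. These values set replicate 3 apart but give little ground for the pairing within numbers 1 and 2. Standard errors were taken as the absolute log2 fold change over the root of F. For the length offset, log counts were smoothed against exon length within each library by lowess (span 0.3). Alternatives were no block, DESeq2 1.42.0, RLE and library size scaling, other filters, unique reads, all 12 libraries and each pair left out. The script was tested on simulated data that had less spread than these data and a replicate effect built in. That test checks the code and does not show how reliable the calls are here. Total counts were 29834029 to 34037178 per library, and limits of detection cover counting error only. Members and gene lists were chosen with earlier results of these data known. Some results are not reported here.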

Additional observations from a re-analysis of the deposited data

How the results depend on the processing

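The count of 869 higher genes became 0 with no replicate block, 141 with DESeq2 and no replicate block, and 504 with all 12 libraries in 1 fit. The count of 393 lower genes became 0, 9 and 119 under the same settings, 617 with DESeq2 and the block, 2052 with library size scaling, 931 without a filter and 260 with the length offset and block. Leaving out 1 pair gave from 3 to 883 higher and from 0 to 517 lower genes. RLE scaling gave 934 and 292, and moved the share of higher genes among those called from 68.9% to 76.2%, against 22.3% with library size scaling, 80.9% with all 12 libraries and 55.7% without a filter. For Itgb2, the log2 fold change was -0.93 with no replicate block and -0.90 with DESeq2 and no replicate block, neither past the threshold, and ranged from -1.08 to -0.77 with 1 pair left out. The 964 genes called in the same direction in unstimulated libraries became 0 with no replicate block and ranged from 332 to 994 with 1 pair left out. The interaction gave from 0 to 1 genes with 1 pair left out. Neither Itgb2 nor any of the other 151 called genes of the named set changed sign under these settings. Of the alpha chain genes, which were not called, Itgal was at 0.10 without the third pair, Itgax at -0.10 with library size scaling, and Itgam, at 0.01 with the block, at -0.12 with no replicate block and -0.41 without the second pair. The cause of these changes was not tested. Which animals or cultures the replicate numbers pair is not given in the labels, and all edgeR calls were lost without the block, while 135 higher and 9 lower genes were also called by DESeq2 without it.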
